A study of Homo sapiens with 9 samples.

Results

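The genes described here are 10 markers of melanocyte lineage and dedifferentiation, read by symbol from a normalized RNA-seq table of 57736 rows, of which 31530 had a read in any library. They are the lineage transcription factors MITF, SOX10 and PAX3, the pigment genes TYR, DCT, PMEL and MLANA, the proteolipid GPM6B, and NGFR and SOX9, which mark dedifferentiated or neural crest-like melanoma cells. All libraries came from SKMEL-147, an established human melanoma cell line that had been infected with lentiCas9-Blast so that it stably expressed Cas9, and then with a GFP-marked lentivirus carrying a guide RNA. The 3 groups were sgScr (a scrambled guide, the control), sgPHF8-1 and sgPHF8-3 (guides against PHF8, a histone demethylase), with 3 biological replicates lettered A, B and C in each. Controls and edited cells therefore shared Cas9, the vector and transduction. The cells were sequenced in bulk and as transduced populations, so fewer cells that express a gene and less RNA per cell cannot be told apart.

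Melanocytes descend from the neural crest, the embryonic tissue that also gives rise to glia and peripheral neurons. PAX3 and SOX10 switch on MITF, the master regulator of the lineage, and MITF in turn activates the pigment enzymes and melanosome proteins, many of them through a CATGTG element in their promoters. Melanoma cells can lose this programme, and cells low in MITF and pigment genes often carry the neural crest receptor NGFR or the receptor tyrosine kinase AXL in its place.

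The guides are shown because every comparison rests on them, each with its target in lower case and the adjoining PAM in capitals. The sgPHF8-1 target lies on chrX:54069090-54069109, plus strand, GRCh37, in exon 2 of the 22 exons of the canonical PHF8 transcript and in a coding exon of 13 of 15 coding transcripts. The sgPHF8-3 target lies on chrX:53966772-53966791, minus strand, in exon 21 and in a coding exon of 4 of those 15 transcripts. Each had 1 exact match in the genome.
sgPHF8-1: gtcacactcgatcatgaagcGGG
sgPHF8-3: tcctcctgagcctaaacaagAGG

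RefSeq (GRCh38.p14) promoter windows were found for 6 of the 10 genes, and 3 of them are shown because they set a gene that was transcribed beside pigment genes at or near 0 reads. Each runs over the 250 bases upstream of a start site, 5′ to 3′ on the gene's strand. Capitals mark TGACGTCA, the palindromic cAMP response element, in the MITF window that lies most downstream of the 3 in the table, at the melanocyte-specific start on chr3:69936342-69936591, plus strand. In TYR on chr11:89177625-89177874, plus strand, and in the DCT window on chr13:94479683-94479932, minus strand, capitals mark CATGTG or its reverse complement CACATG, the core of the M-box that MITF binds.
MITF: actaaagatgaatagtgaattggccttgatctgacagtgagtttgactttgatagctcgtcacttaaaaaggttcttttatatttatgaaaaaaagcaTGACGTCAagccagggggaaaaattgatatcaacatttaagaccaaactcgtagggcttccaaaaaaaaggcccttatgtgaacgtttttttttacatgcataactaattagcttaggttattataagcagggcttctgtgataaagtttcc
TYR: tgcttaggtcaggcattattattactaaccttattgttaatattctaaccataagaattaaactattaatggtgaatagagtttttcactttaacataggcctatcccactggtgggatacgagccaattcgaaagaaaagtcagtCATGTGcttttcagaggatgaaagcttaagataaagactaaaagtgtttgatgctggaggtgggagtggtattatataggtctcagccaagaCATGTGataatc
DCT: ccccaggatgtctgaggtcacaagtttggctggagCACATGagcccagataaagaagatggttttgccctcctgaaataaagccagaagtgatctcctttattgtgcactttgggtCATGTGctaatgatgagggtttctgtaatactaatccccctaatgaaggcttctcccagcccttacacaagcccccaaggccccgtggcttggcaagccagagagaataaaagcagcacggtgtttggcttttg

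Of 35116 RefSeq promoter windows of this length, searched on both strands, 9.42% held CATGTG or CACATG and 1.65% held TGACGTCA. The matches in TYR began at -104 and -12 from the start site, those in DCT at -215 and -134, and the MITF match at -152. GPM6B also held TGACGTCA, beginning at -108. Another element, CACGTG, was in 6.34% of windows and in none of those of these genes. A match describes the letters of a window and is not a measurement of binding.

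Libraries held 17366120 to 19838142 counts, so 3 counts, the floor used here, corresponded to 0.151 to 0.173 CPM (counts scaled to the library total). Replicates differed by more than counting noise, with a chi-square per degree of freedom of 1.35 to 1.61 among sgScr libraries and 1.63 to 4.2 among edited ones. The library sgPHF8-1 B stood apart in its number of genes holding a read, 22427 against 23035 to 23229 elsewhere. Its chi-square values against the other replicates of its group were 3.14 and 4.2. They do not by themselves set it apart, since sgPHF8-3 A against C gave 3.26. Without sgPHF8-1 B, every call of these genes given below was the same except those of PAX3, which are given with and without it. PHF8 itself stood at 655, 606 and 634 normalized counts in sgScr, at 564, 571 and 565 in sgPHF8-1 and at 399.8, 387 and 434 in sgPHF8-3. Its RNA was below sgScr in all 6 edited libraries, with a log2 fold change of -0.16 (SE 0.054; adjusted p = 0.0272) for sgPHF8-1 and -0.63 (SE 0.057; adjusted p = 6.36e-09) for sgPHF8-3 in edgeR's quasi-likelihood test. The sgPHF8-1 call was lost in DESeq2 (adjusted p = 0.119) and in 4 of 9 fits without a library, namely sgScr A or C or sgPHF8-1 A or C, with an adjusted p of up to 0.118. RNA from an edited gene can still be counted, so these levels do not measure PHF8 protein. By Western blot the paper found efficient PHF8 knockout with both guides in SKMEL-147.

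SKMEL-147 cells held abundant NGFR and SOX10 and next to no pigment gene RNA. SOX9, PAX3 and GPM6B lay somewhat below the middle of the tested genes, and MITF further below it. Levels can be compared between genes only per length, here as reads per kilobase of annotated exon scaled to the library total (RPKM). In sgScr the order was NGFR at 152 ± 3.49 RPKM (SD, n = 3 throughout), SOX10 at 31.0 ± 0.646, SOX9 at 3.93 ± 0.317, PAX3 at 3.10 ± 0.190, GPM6B at 2.99 ± 0.174 and MITF at 1.84 ± 0.128. PAX3 and GPM6B lay within their spread of each other, and the other neighbours were further apart than their SDs. NGFR was more abundant per length than 98.8% of the 14614 genes tested and SOX10 than 90.6%, whereas SOX9, PAX3, GPM6B and MITF fell at the percentiles 46.7, 41.4, 40.6 and 31.3. In edited cells NGFR fell to 93.8 ± 2.08 RPKM with sgPHF8-1 and 125 ± 5.89 with sgPHF8-3, and it remained the most abundant of the 10 genes in every library.

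**Figure D1:**
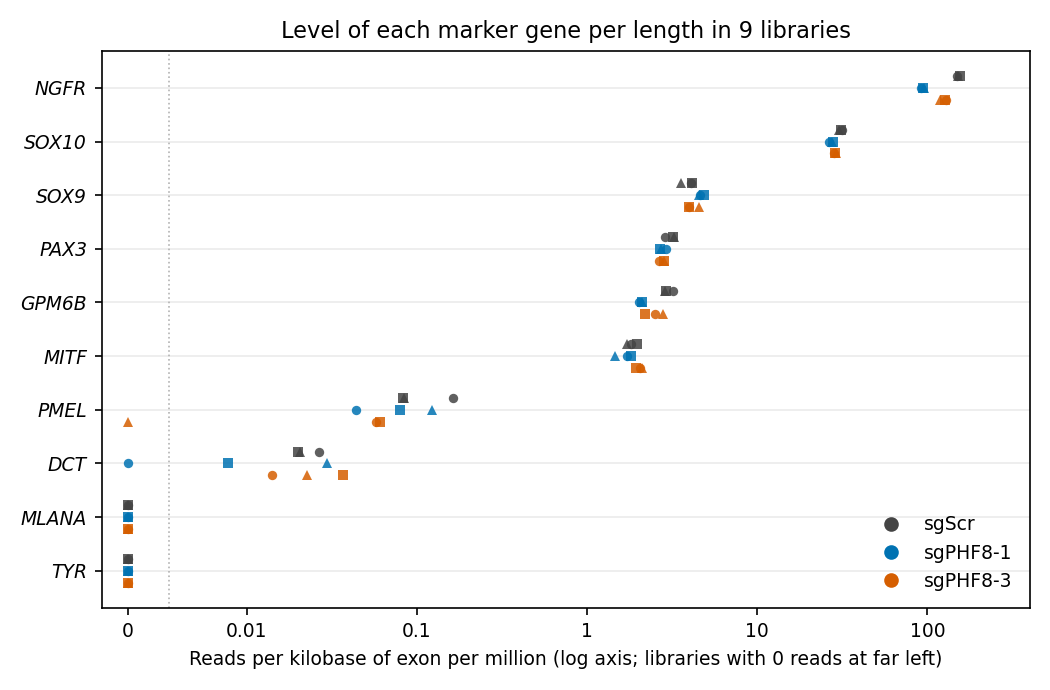
Level of each of the 10 genes in RPKM (log axis), with 1 point per library, colour for the guide, and circle, square and triangle for replicates A, B and C. NGFR lies near 152 in sgScr, MITF near 1.84, PMEL and DCT near or below 0.1, and MLANA and TYR at 0 in all 9 libraries.

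The pigment genes could not be compared between guides, since all 4 were too low to pass the filter on low counts. TYR, which encodes the rate-limiting enzyme of melanin synthesis (GRCh37 chr11:88911043-89028927, plus strand), and MLANA, which encodes the melanosomal antigen MART-1 (chr9:5890889-5910606, plus strand), had 0 reads in all 9 libraries. Out of 167805124 counts, a count of 0 allows a level of up to 0.0179 CPM over all libraries. DCT, which encodes the melanin enzyme dopachrome tautomerase (chr13:95089065-95131936, minus strand), had 25 reads in all, with 4, 3 and 3 in sgScr, 0, 1 and 4 in sgPHF8-1 and 2, 5 and 3 in sgPHF8-3. These counts overlap in all 3 groups and lie at or near the floor of 3.

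PMEL, which encodes the protein of the melanosome's fibrils (chr12:56347889-56367101, minus strand), had 48 reads in all, with 12, 6 and 6 in sgScr, 3, 5 and 8 in sgPHF8-1 and 4, 4 and 0 in sgPHF8-3. The sgPHF8-1 counts overlap those of sgScr, whereas the sgPHF8-3 counts lie below them. Left in the fit without a filter, neither DCT nor PMEL passed in any comparison, and the lowest adjusted p in edgeR was 0.112, for PMEL in sgPHF8-3 against sgScr. PMEL overlaps CDK2 on the opposite strand, at 2978 normalized counts in sgScr, and the strand setting of the counting is not given in the sources used here, so PMEL reads cannot be told from those of CDK2. The CATGTG elements in the TYR and DCT windows shown above thus belong to genes at 0 reads and at 25 reads in these cells.

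Of the other 6 genes, NGFR, GPM6B, SOX10 and PAX3 fell and SOX9 rose in sgPHF8-1 relative to sgScr-transduced cells. In sgPHF8-3, NGFR, GPM6B and SOX10 fell and none of the 6 was called higher. A gene was called at a Benjamini-Hochberg adjusted p below 0.05 in edgeR's quasi-likelihood test over all 14614 genes. With sgPHF8-1, 4 of the 6 tested genes were lower against 15.7% of all genes tested, and 1 was higher against 15.2%. With sgPHF8-3, 3 of 6 were lower against 9.78% of all genes and 0 of 6 were higher against 9.48%. For that count of 0, none of the 6 was higher at an unadjusted p below 0.05 in edgeR, and DESeq2 and limma called 0. The median log2 fold change of the 6 genes was -0.18 with sgPHF8-1 and -0.14 with sgPHF8-3, where that of all genes tested was 0.0003 and -0.0008. DESeq2 called fewer of the 6, namely 3 lower and 0 higher with sgPHF8-1 and 2 lower with sgPHF8-3.

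With both guides combined against sgScr, SOX10, PAX3, GPM6B and NGFR were lower, 4 of 6 against 14.9% of all genes, and 0 of 6 were higher against 14.7%. At an unadjusted p below 0.05 in edgeR 1 of the 6, SOX9, was higher, and DESeq2 and limma called 0. Tested against each other, sgPHF8-3 was above sgPHF8-1 for MITF and NGFR, 2 of 6 against 5.83% of all genes, and below it for 0 of 6 against 4.74%. At an unadjusted p below 0.05 in edgeR 1 of the 6, again SOX9, was lower, and DESeq2 and limma called 0. The sgPHF8-1 and sgPHF8-3 comparisons share the sgScr libraries and are not independent of each other.

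**Figure D2:**
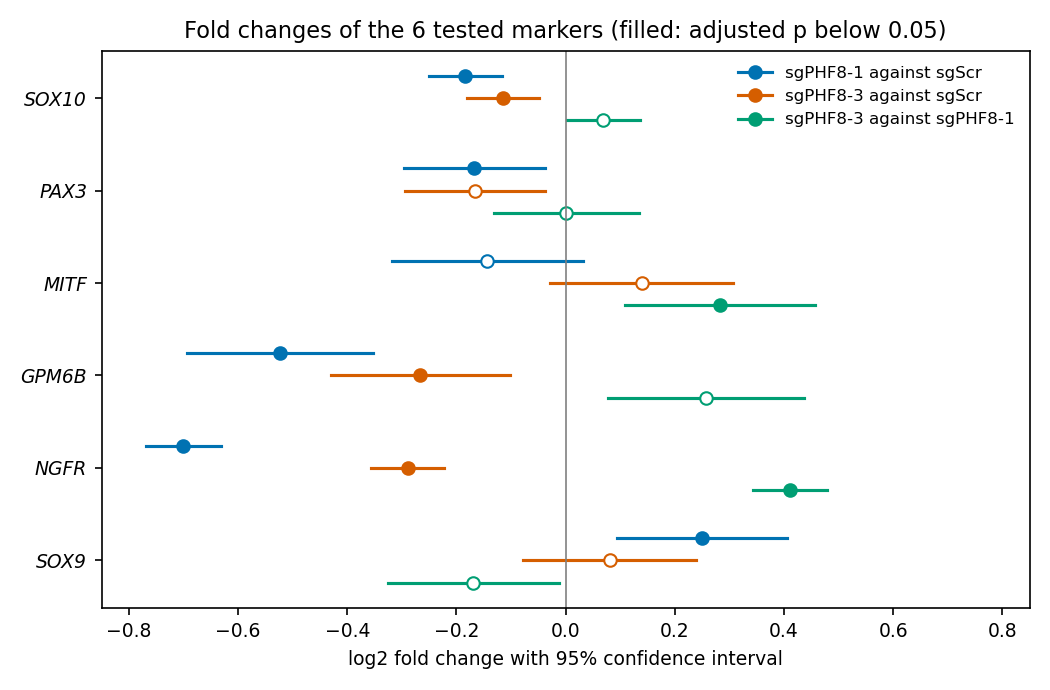
log2 fold change with its 95% confidence interval for the 6 tested genes, for each guide against sgScr and for sgPHF8-3 against sgPHF8-1, with filled points where the adjusted p was below 0.05. NGFR lies at -0.70 and -0.29, GPM6B at -0.52 and -0.27, and SOX10 at -0.18 and -0.12 for sgPHF8-1 and sgPHF8-3, while MITF is filled only between the guides, at 0.28.

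NGFR, the low-affinity neurotrophin receptor p75NTR and the most abundant of the 10 (GRCh37 chr17:47572655-47592370, plus strand), had the largest fold change of the 6 with sgPHF8-1. It stood at 11455, 11971 and 11653 normalized counts in sgScr, at 6999, 7311 and 7286 in sgPHF8-1, and at 9947, 9710 and 9052 in sgPHF8-3. The 3 groups did not overlap, with sgScr highest and sgPHF8-1 lowest. NGFR fell by 38.5% with sgPHF8-1 (log2 fold change -0.70, SE 0.033; adjusted p = 8.85e-15 in edgeR) and fell by 18.2% with sgPHF8-3 (-0.29, SE 0.033; adjusted p = 3.08e-07). The guides differed from each other by 0.41 on the log2 scale (95% interval 0.34 to 0.48; adjusted p = 6.65e-09), and all 4 comparisons were called in each of the 9 fits that left out a library. The larger fall in NGFR was with the guide under which PHF8 RNA was less reduced, though that RNA does not measure loss of the protein.

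SOX10, the neural crest transcription factor that maintains the melanocyte and glial lineages (chr22:38366693-38383429, minus strand), moved by less. It stood at 2830.4, 2772 and 2709.7 normalized counts in sgScr, at 2369, 2503 and 2448 in sgPHF8-1, and at 2532, 2553 and 2592 in sgPHF8-3. All 6 edited libraries lay below the lowest control, and all 3 sgPHF8-3 libraries lay above the highest of sgPHF8-1. SOX10 fell by 12.0% with sgPHF8-1 (log2 fold change -0.18, SE 0.032; adjusted p = 7.85e-05 in edgeR) and fell by 7.7% with sgPHF8-3 (-0.12, SE 0.032; adjusted p = 0.0123). The difference between the guides, 0.069 with a 95% interval of 0.002 to 0.14, did not pass (adjusted p = 0.196). The sgPHF8-3 call was lost without sgScr A (adjusted p = 0.073), sgPHF8-3 A (0.0512) or sgPHF8-3 B (0.0519), whereas the sgPHF8-1 call was made in each of the 9 such fits. SOX10 overlaps POLR2F on the opposite strand, at 1364 normalized counts in sgScr, and their reads may not be fully separable.

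PAX3, the paired-box factor that acts with SOX10 upstream of MITF (chr2:223064606-223163717, minus strand), had a similar fold change with each guide, near the threshold of the test. It stood at 425, 468 and 476 normalized counts in sgScr, at 426, 395 and 397 in sgPHF8-1, and at 389, 415 and 417 in sgPHF8-3. One sgPHF8-1 library overlapped the controls, and the sgPHF8-3 libraries lay below all of them. The log2 fold change was -0.17 in both comparisons (SE 0.063), with an adjusted p in edgeR of 0.0445 for sgPHF8-1, 0.0646 for sgPHF8-3 and 0.0208 for both guides combined, and the guides differed by 0.001 (95% interval -0.13 to 0.13). The sgPHF8-1 call was lost in DESeq2 (adjusted p = 0.152), with no filter on low counts (0.0663) and without sgScr B (0.145), sgScr C (0.175), sgPHF8-1 B (0.119), sgPHF8-1 C (0.115) or sgPHF8-3 B (0.0536). The sgPHF8-3 value passed without sgScr A (0.0325) or sgPHF8-1 B (0.0465) and in a fit of its own groups alone (0.0486), and the call for both guides was lost in DESeq2 (0.095) and without sgScr B (0.107) or sgScr C (0.13).

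MITF, the basic helix-loop-helix leucine zipper factor that controls melanocyte identity (chr3:69788607-70017487, plus strand), did not differ detectably from the control with either guide, though the guides differed from each other. It stood at 251, 272 and 236 normalized counts in sgScr, at 237, 249.9 and 200.5 in sgPHF8-1, and at 282, 266 and 288 in sgPHF8-3. Libraries of either guide overlapped the controls, while every sgPHF8-3 library lay above every sgPHF8-1 library. The log2 fold change was -0.14 with sgPHF8-1 (95% interval -0.32 to 0.031; adjusted p = 0.216 in edgeR) and 0.14 with sgPHF8-3 (-0.028 to 0.31; adjusted p = 0.251). Between sgPHF8-3 and sgPHF8-1 it was 0.28 (SE 0.085; adjusted p = 0.0306), and this call was lost in DESeq2 (0.102) and without sgPHF8-1 C (0.166), sgPHF8-3 A (0.0668) or sgPHF8-3 C (0.104). With both guides combined the difference from sgScr was -0.002 (95% interval -0.15 to 0.14). The counts are summed over the gene, so they do not say from which of its start sites, the melanocyte-specific window shown above included, the RNA came.

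GPM6B, a multi-pass membrane protein of the proteolipid family that is transcribed in glia and melanocytes (chrX:13789058-13956757, minus strand), was lower with both guides. It stood at 341, 309.9 and 307 normalized counts in sgScr, at 216, 226 and 224 in sgPHF8-1, and at 268, 233 and 297 in sgPHF8-3. The 3 groups did not overlap, though sgPHF8-3 spread over a wider range than sgPHF8-1. GPM6B fell by 30.4% with sgPHF8-1 (log2 fold change -0.52, SE 0.083; adjusted p = 2.17e-05 in edgeR) and fell by 16.8% with sgPHF8-3 (-0.27, SE 0.080; adjusted p = 0.0196). The sgPHF8-3 call was lost in DESeq2 (0.0863) and without sgScr A (0.109) or sgPHF8-3 B (0.158), and the difference between the guides (0.26, 95% interval 0.078 to 0.44) had an adjusted p of 0.0577, which passed without sgPHF8-3 B (0.0198). GPM6B overlaps OFD1 on the opposite strand, at 427 normalized counts in sgScr.

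SOX9, a SOX factor of the neural crest and glia whose level often runs opposite to that of SOX10 in melanoma (chr17:70117161-70122557, plus strand), was the only one of the 6 called higher against sgScr. It stood at 296, 303 and 260.1 normalized counts in sgScr, at 333, 358 and 333 in sgPHF8-1, and at 288, 291 and 332 in sgPHF8-3. The sgPHF8-1 libraries lay above all the controls, and those of sgPHF8-3 overlapped the controls. SOX9 rose with sgPHF8-1 (log2 fold change 0.25, SE 0.076; adjusted p = 0.0129 in edgeR), a call that was lost in DESeq2 (0.0565) and without sgScr C (0.0973). With sgPHF8-3 the value was 0.081 (95% interval -0.078 to 0.24; adjusted p = 0.514), and the difference between the guides did not pass (-0.17, 95% interval -0.32 to -0.013; adjusted p = 0.166).

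**Figure D3:**
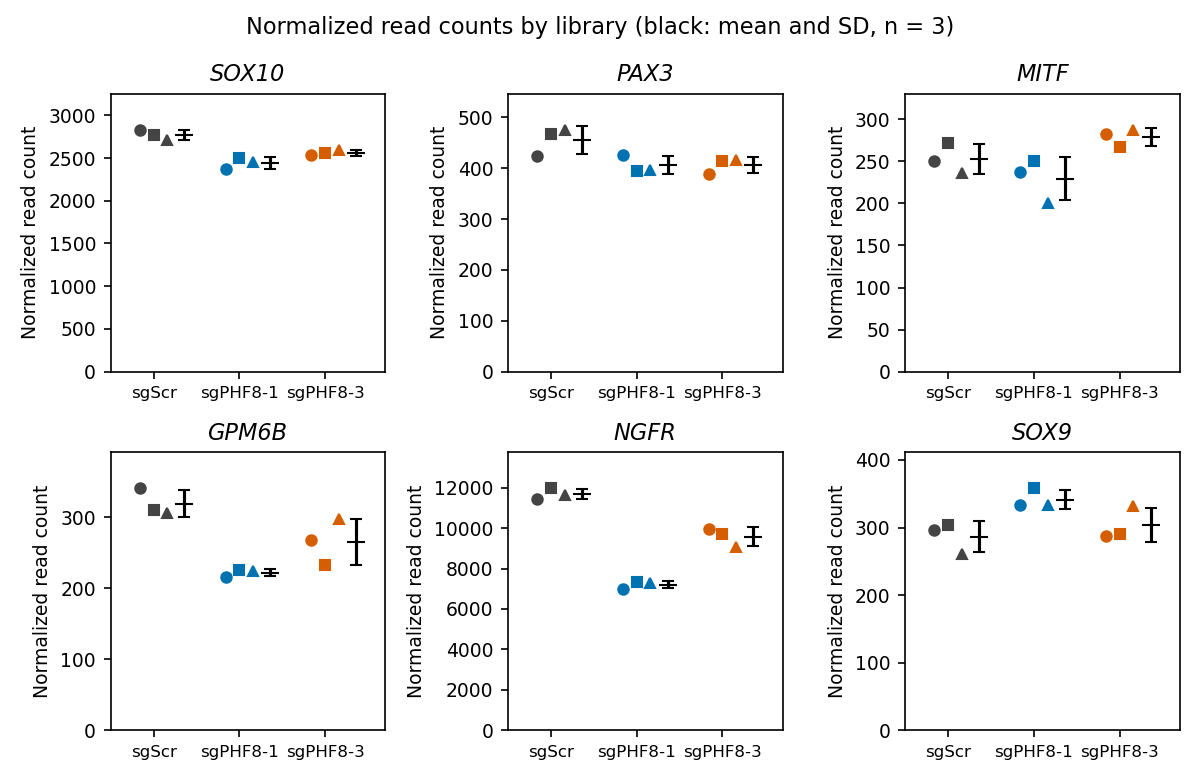
Normalized read counts of the 6 tested genes by guide, with circle, square and triangle for replicates A, B and C, and black marks for the mean and SD (n = 3); each axis starts at 0. The 3 groups are separate for NGFR and GPM6B, and overlap between sgScr and either guide for MITF.

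A ratio of counts of 2 genes within a library does not depend on how libraries are scaled. NGFR over SOX10 was 4.05, 4.32 and 4.30 in sgScr, 2.95, 2.92 and 2.98 in sgPHF8-1, and 3.93, 3.80 and 3.49 in sgPHF8-3. The groups did not overlap, and every edited library lay below every control. SOX9 over SOX10 was 0.103 ± 0.00682 in sgScr, 0.140 ± 0.00361 in sgPHF8-1 and 0.119 ± 0.00818 in sgPHF8-3, with no edited library inside the range of the controls. GPM6B over SOX9 was 1.12 ± 0.0838, 0.652 ± 0.0213 and 0.874 ± 0.0671 in the same order, again without overlap. GPM6B over SOX10 was 0.115 ± 0.00466, 0.0911 ± 0.000674 and 0.104 ± 0.0118, and here sgPHF8-3 overlapped both other groups. PAX3 over SOX10 was 0.165 ± 0.0132, 0.167 ± 0.0116 and 0.159 ± 0.00471, and the 3 groups overlapped. MITF over SOX10 was 0.0913 ± 0.00583, 0.0939 ± 0.0104 and 0.109 ± 0.00394, with sgPHF8-3 above the other libraries. MITF over NGFR was 0.0216 ± 0.00122, 0.0319 ± 0.00377 and 0.0292 ± 0.00227, with every edited library above every control. These ratios are given as descriptions, with no test.

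**Figure D4:**
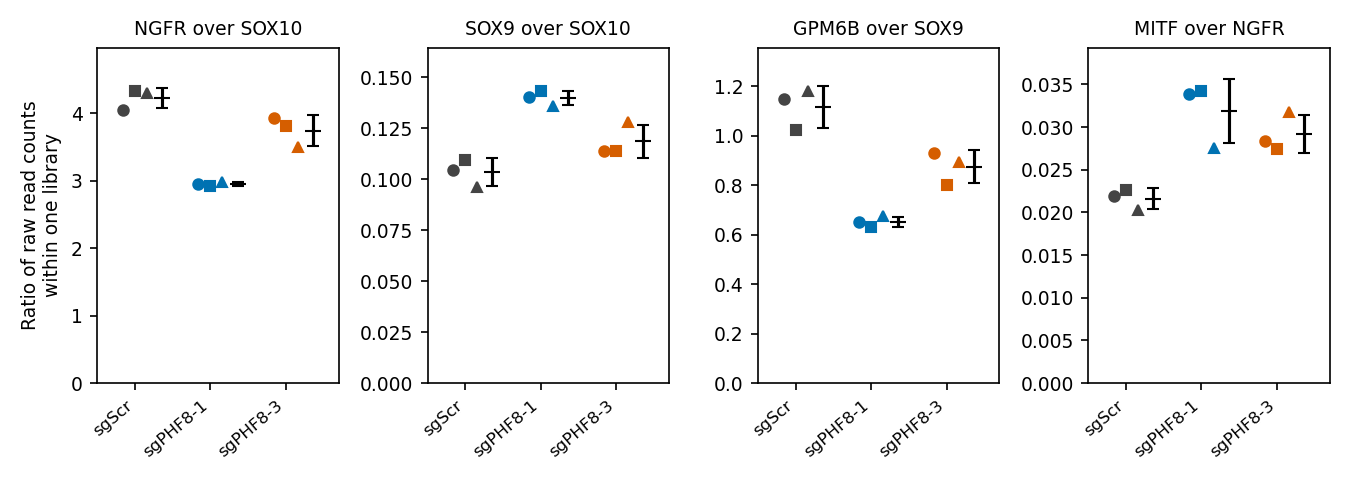
Ratios of raw counts of 2 genes within each library, by guide, with circle, square and triangle for replicates A, B and C and black marks for the mean and SD (n = 3); each axis starts at 0. NGFR over SOX10 averages 4.22 in sgScr, 2.95 in sgPHF8-1 and 3.74 in sgPHF8-3.

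Pigment genes beyond the 4 above were also mostly silent, whereas the machinery of the melanosome was transcribed. Of 12 further pigment enzymes, channels and melanosome proteins, 5 could be tested, and TYRP1, OCA2, SLC45A2, SLC24A5, GPR143, CAPN3 and TRPM1 could not, with SLC24A5 and TRPM1 at 0 reads in every library. In this list 1 gene was higher with each guide (15.2% and 9.48% of all genes tested) and 1 was lower with sgPHF8-1 (15.7%). With sgPHF8-3, 0 were lower (9.78% of all genes tested), though 2 were at an unadjusted p below 0.05 in edgeR, and DESeq2 called 0. GPNMB, a melanosomal and lysosomal glycoprotein, rose from 18.1 ± 2.68 normalized counts in sgScr to 65.0 ± 8.67 in sgPHF8-1 (log2 fold change 1.84, SE 0.203; adjusted p = 8.57e-08 in edgeR) and 32.9 ± 4.72 in sgPHF8-3 (0.86, SE 0.234; adjusted p = 0.0105), and the guides differed (adjusted p = 0.000707). The sgPHF8-3 call for GPNMB was lost without sgScr C (0.0564) or sgPHF8-3 B (0.0654). TPCN2, an endolysosomal ion channel, fell from 299 ± 6.79 to 211 ± 32.5 with sgPHF8-1 (adjusted p = 7e-05 in edgeR). With sgPHF8-3 it stood at 255 ± 9.11 and was not called in edgeR (adjusted p = 0.0564). That value passed with no filter on low counts (0.0424), in a fit of its own groups alone (0.0193) and without sgPHF8-1 B (0.0174).

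All 22 genes of melanosome biogenesis and transport were tested, and their median log2 fold changes were 0.011 with sgPHF8-1 and 0.009 with sgPHF8-3. With sgPHF8-1, 6 were higher and 2 lower (15.2% and 15.7% of all genes tested), and with sgPHF8-3, 1 was higher and 2 lower (9.48% and 9.78%). DESeq2 called 2 higher and 2 lower with sgPHF8-1, and the counts of this list other than the 6 lay near or below the shares over all genes. LYST, the lysosomal trafficking regulator, fell from 1128 ± 13.6 normalized counts to 823 ± 18.2 and 969.8 ± 74.7 with sgPHF8-1 and sgPHF8-3. MYO5A, the motor that carries melanosomes along actin, fell from 1902 ± 59.2 to 1584 ± 26.4 and 1647 ± 105, and HPS5, a subunit of the BLOC-2 sorting complex, rose from 983 ± 10.3 to 1163 ± 20.8 and 1092 ± 31.3. The HPS5 call with sgPHF8-3 was lost without sgPHF8-3 B (0.0556).

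Of 12 other genes reported as MITF targets, 11 were tested, and 3 were higher and 2 lower with sgPHF8-1, and 2 and 1 with sgPHF8-3. Beside the shares over all genes tested, 15.2% higher and 15.7% lower with sgPHF8-1 and 9.48% and 9.78% with sgPHF8-3, these counts do not set the list apart. MET, the receptor of hepatocyte growth factor, rose from 3073 ± 82.2 normalized counts to 3448 ± 68.6 and 3366 ± 128, though the sgPHF8-3 call was lost without sgScr C (0.0568) or sgPHF8-3 B (0.0791). HIF1A, the hypoxia-inducible factor subunit, fell from 7530 ± 68.7 to 6927 ± 163 and 6782 ± 138.

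Among neural crest and MITF-partner transcription factors, 20 of 22 were tested, and 7 were lower and 2 higher with sgPHF8-1 (15.7% and 15.2% of all genes tested). DESeq2 called 4 of them lower and 0 higher. With sgPHF8-3, 5 were lower and 0 higher (9.78% and 9.48%), and none was higher at an unadjusted p below 0.05 in edgeR or in DESeq2. SOX2, a pluripotency and neural progenitor factor, fell from 58.8 ± 3.01 normalized counts in sgScr to 25.9 ± 2.10 in sgPHF8-1 (log2 fold change -1.18; adjusted p = 1.31e-05 in edgeR) and 31.9 ± 2.89 in sgPHF8-3 (-0.88; adjusted p = 0.000592). SOX4 fell from 1356 ± 33.1 to 1181 ± 35.1 and 1036 ± 6.24. SOX6, at 19.98 ± 4.96 in sgScr, fell to 8.21 ± 1.70 and 10.1 ± 2.39, with a sgPHF8-3 call (adjusted p = 0.0286) that was lost without sgScr A (0.151), sgScr B (0.071), sgPHF8-3 B (0.0629) or sgPHF8-3 C (0.119).

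The receptors and ligands of the lineage moved in both directions. Of 15 genes, 11 were tested, and 4 were higher and 2 lower with sgPHF8-1 (15.2% and 15.7% of all genes tested), and 4 and 3 with sgPHF8-3 (9.48% and 9.78%). KITLG, the ligand of the melanocyte receptor KIT, rose from 628 ± 48.6 normalized counts to 1015 ± 7.33 and 925 ± 37.9 (log2 fold changes 0.69 and 0.56), whereas KIT itself had at most 7 reads in any library and could not be tested. EDN1, or endothelin 1, rose from 363 ± 29.0 to 606 ± 46.6 and 554 ± 18.6. NRG1, a ligand of ERBB receptors, rose from 451 ± 39.0 to 585 ± 27.8 and 607 ± 30.1, while ERBB3, its receptor, fell from 54.7 ± 7.73 to 24.5 ± 7.46 and 26.4 ± 3.67 (log2 fold changes -1.16 and -1.04). SORT1, or sortilin, which pairs with NGFR in the receptor for proneurotrophins, fell from 1839 ± 10.7 to 1562 ± 55.4 and 1643 ± 18.3.

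Other genes of the dedifferentiated state that edgeR called against sgScr over all 9 libraries were lower. Of 14 genes, 10 were tested, and 8 were lower and 0 higher with sgPHF8-1 (15.7% and 15.2% of all genes tested), and 4 were lower and 0 higher with sgPHF8-3 (9.78% and 9.48%). At an unadjusted p below 0.05 in edgeR 0 were higher with sgPHF8-1 and 2 with sgPHF8-3, and DESeq2 called 6 lower and 0 higher with sgPHF8-1 and 3 lower and 1 higher, AXL, with sgPHF8-3. The median log2 fold changes were -0.18 and -0.12. NES, the intermediate filament protein nestin, fell from 12902 ± 342 normalized counts to 9995 ± 506 and 10490 ± 447 with sgPHF8-1 and sgPHF8-3. The adhesion molecule L1CAM fell from 4030.5 ± 206 to 2867 ± 34.8 and 2844 ± 40.9, and the secreted matrix protein TGFBI fell from 42592 ± 1059 to 37633 ± 869 and 34350 ± 433. AXL, singled out after its values were seen because it defines this state, stood at 27921 ± 178, 27638 ± 557 and 29234 ± 318 and was not called by edgeR against sgScr with either guide (adjusted p = 0.726 and 0.0814). With sgPHF8-3 it was called higher in DESeq2 (log2 fold change 0.066; adjusted p = 0.039) and without sgPHF8-1 B (0.0225). Tested against sgPHF8-1, 4 of the 10 (AXL, EGFR, FOSL1 and NT5E, named after their values were seen) were higher in sgPHF8-3 and 1 (TGFBI) was lower in edgeR, where 5.83% and 4.74% of all genes were.

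Of 9 glial and proteolipid genes, 4 were tested. FABP7, a fatty acid binding protein of glia, fell from 29.1 ± 3.21 normalized counts to 17.7 ± 6.25 with sgPHF8-1 (adjusted p = 0.0363), a call that was lost in DESeq2 (0.146) and in each fit without an sgScr library or without sgPHF8-1 A or C, with an adjusted p of up to 0.151. All 6 general melanoma antigens were tested, and MAGEA1 and MAGEA3, cancer-testis antigens with near-identical paralogs among which the counting could split reads, rose with each guide. MAGEA1 went from 1409 ± 30.3 to 1589 ± 55.1 and 1529 ± 35.9, and MAGEA3 from 1734 ± 19.8 to 1901 ± 71.9 and 1911 ± 47.9. The MAGEA1 call with sgPHF8-3 (adjusted p = 0.0232) was lost in DESeq2 (0.0936) and without sgScr A, sgScr B, sgPHF8-3 A or sgPHF8-3 B, with an adjusted p of up to 0.102. MCAM, a melanoma adhesion molecule, fell from 7643 ± 117 to 7193 ± 255 with sgPHF8-3 (adjusted p = 0.044), a call that was lost without any 1 sgScr library, sgPHF8-1 A, sgPHF8-3 B or sgPHF8-3 C, with an adjusted p of up to 0.208. Of the 6 antigens, 2 were thus higher and 0 lower with sgPHF8-1 (15.2% and 15.7% of all genes tested), with 0 lower at an unadjusted p below 0.05 in edgeR or in DESeq2, and 2 were higher and 1 lower with sgPHF8-3 (9.48% and 9.78%).

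**Figure D5:**
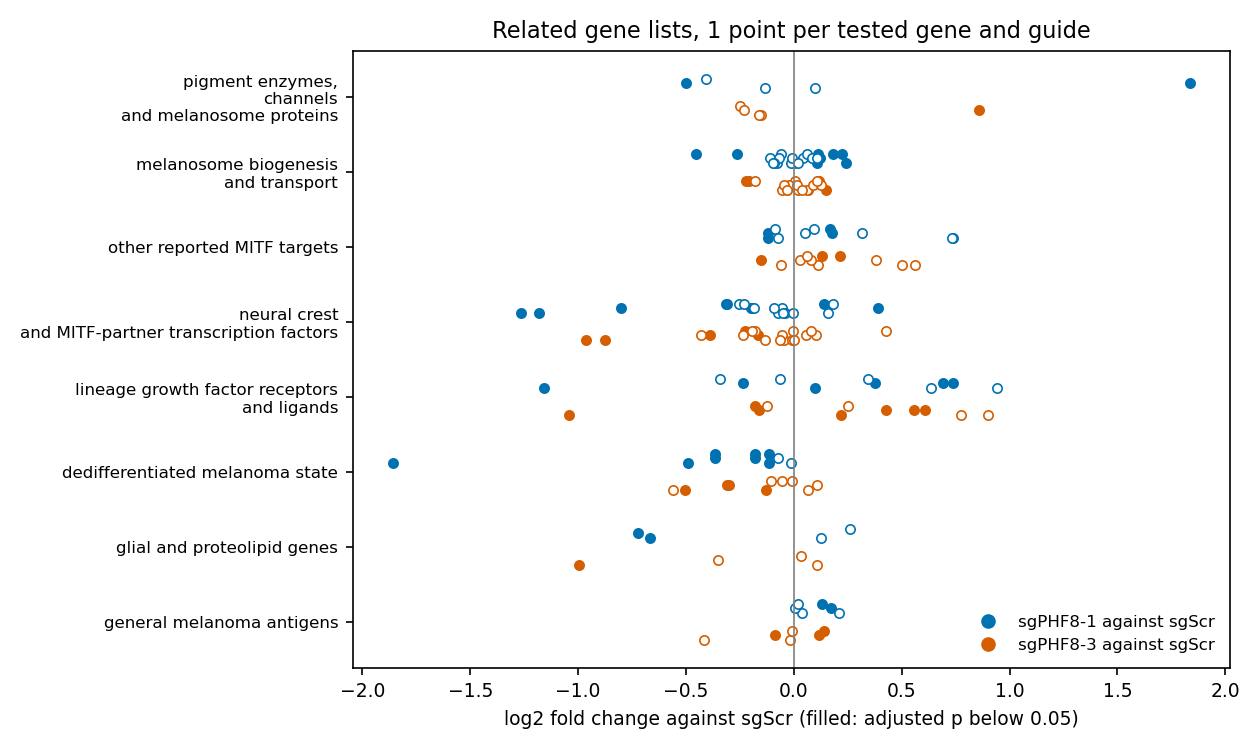
log2 fold change against sgScr of every tested gene in the 8 related lists, with 1 point per gene and guide and filled points where the adjusted p was below 0.05. In the dedifferentiated list the 8 filled sgPHF8-1 points all lie below 0, and GPNMB lies at 1.84 and 0.86 in the pigment list.

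Markers of other cell types were mostly low or absent. The highest were KRT10, at 316 ± 3.02 normalized counts in sgScr, and LUM, at 300.1 ± 16.3. Of 6 keratinocyte genes, KRT14 and KRT10 were tested, and the summed level of the list was 19.1 to 19.6 CPM in sgScr, 18.9 to 20.2 in sgPHF8-1 and 18.3 to 20.3 in sgPHF8-3. KRT14, an epidermal keratin, fell from 40.03 ± 3.55 normalized counts in sgScr to 18.8 ± 7.27 and 21.4 ± 6.37 with sgPHF8-1 and sgPHF8-3. Its sgPHF8-3 call (adjusted p = 0.0092) was lost without sgScr B (0.0501), and DESeq2 gave it no adjusted p there. Of 6 fibroblast genes, COL1A1 and LUM were tested, and the list summed to 19.6 to 21.8 CPM in sgScr, 20.7 to 23.1 in sgPHF8-1 and 16.6 to 19.2 in sgPHF8-3. LUM, the matrix proteoglycan lumican, fell from 300.1 ± 16.3 normalized counts to 253 ± 17.4 with sgPHF8-3 (adjusted p = 0.0216), a call that was lost in DESeq2 (0.102) and without sgScr A or B or sgPHF8-3 A or B, with an adjusted p of up to 0.11. None of 5 haematopoietic or 3 endothelial genes had enough reads to be tested, at summed levels of up to 1.06 and 1.03 CPM in any library, and KRT1, DCN and CD3E were among the markers at 0 reads in all libraries. The part of these markers in the results above was not tested. The labelled melanoma cells held MITF, SOX10 and PAX3, and had 0 reads of TYR and MLANA. Among the general melanoma antigens, PRAME stood at 3398 ± 74.6 normalized counts in sgScr and MCAM at 7643 ± 117, but CSPG4 at 19.1 ± 2.05.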

How the data were processed

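RNA of 9 SKMEL-147 cultures was depleted of ribosomal RNA and sequenced as paired reads of 50 bases. The authors aligned reads to hg19 with STAR and, per the labels, counted them with HTSeq, giving a deposited table of raw read counts for 57736 Ensembl genes. The annotation release and the strand setting are not given in the sources used here. A second deposited table holds the authors' normalized counts, a signal scale named by gene symbol, in which each library was divided by a size factor (0.924 to 1.08). Multiplied by that factor, 100% of the normalized values fell within 0.01 of the raw count, so the tables hold the same reads.

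Raw counts of all 9 libraries were fitted with edgeR 4.0.16 (R 4.3.3, TMM scaling, filterByExpr, quasi-likelihood test), with 1 shared estimate of the spread and Benjamini-Hochberg adjustment over the 14614 genes that passed the filter. A gene was called at an adjusted p below 0.05. DESeq2 1.42.0, limma-trend 3.58.1 on log2(normalized count + 1) or + 0.5, RLE scaling, no filter on low counts, separate fits per comparison, a replicate block and leaving out each library were tried as alternatives. The fitting script was tested on simulated data. Per-library values in the text are the deposited normalized counts. Exon lengths and positions came from GENCODE v44 lifted to GRCh37, and 55501 of 57736 IDs matched a symbol.

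The 10 genes and all lists were chosen with earlier results of these data known, so counts over them are descriptions. Named genes are the 10 members, PHF8, and from each related list up to 3 genes per direction that were called with each guide against sgScr, those with the largest change; TPCN2, FABP7, MCAM, KRT14, LUM and AXL were named after their values were seen. The genes most like each member had the highest Pearson correlation of log2 CPM. A few items are not reported here. Intervals on counts cover counting error only.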

Additional observations from a re-analysis of the deposited data

Results flagged for a closer look

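Among the 6 tested markers and PHF8, the guides differed from each other, tested directly in the same edgeR fit, for NGFR, MITF and PHF8. NGFR was higher in sgPHF8-3 than in sgPHF8-1 by 0.41 on the log2 scale (SE 0.033; adjusted p = 6.65e-09), in 3 of 3 libraries. MITF was higher in sgPHF8-3 than in sgPHF8-1 by 0.28 (SE 0.085; adjusted p = 0.0306), again in 3 of 3 libraries, with the sgPHF8-1 mean below and the sgPHF8-3 mean above that of sgScr. PHF8, the targeted gene, differed by -0.48 (SE 0.058, adjusted p = 3.86e-06 in edgeR). Its RNA was thus lower in sgPHF8-3, the guide with the smaller fall in NGFR, but does not measure PHF8 protein. What these differences come from was not tested.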

How the results depend on the processing

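NGFR in every comparison, and SOX10 and GPM6B in sgPHF8-1 and in both guides combined, kept their direction and call under all alternatives run. Over the 6 tested genes, 349 values kept direction and call, 23 lost a call, 5 gained one and 7 changed sign, all 7 among leave-one-out fits of uncalled values. The cause of these shifts was not tested. Leaving out 1 library, the MITF difference for both guides combined ranged from -0.047 to 0.052, and between the guides PAX3 ranged from -0.021 to 0.04, ERBB3 from -0.022 to 0.396, L1CAM from -0.022 to 0.002 and MAGEA3 from -0.008 to 0.036. DESeq2 called 3 of the 6 in sgPHF8-1 and 1 between the guides. Over all genes it called 836 higher and 844 lower in sgPHF8-3 (edgeR 1385 and 1429), 1412 higher in both guides combined (edgeR 2149), and 509 higher and 394 lower between the guides (edgeR 852 and 692). Its independent filtering gave no adjusted p for SOX6. Leaving out 1 library, the number of the 6 called ranged from 3 to 5 in sgPHF8-1, from 1 to 4 in sgPHF8-3 (1 without sgPHF8-3 B) and from 1 to 3 between the guides (1 without sgPHF8-1 C, sgPHF8-3 A or sgPHF8-3 C). All genes called higher in sgPHF8-3 ranged from 893 (without sgScr B) to 1733, and between the guides from 541 to 817 higher and from 382 to 662 lower (lowest without sgPHF8-3 B).

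The letters A, B and C recur in each group, but libraries with the same letter did not visibly deviate together. Their correlations of deviations were -0.082 to 0.052, against -0.081 to 0.14 for different letters. With deviations taken from means of 3 libraries, this check cannot exclude a shared day or batch, which the sources used here do not give. With the letter as a replicate block, 2143 genes were higher and 2252 lower in sgPHF8-1, 1314 and 1384 in sgPHF8-3, and 820 and 661 between the guides. Of the 6 genes the block called 4, 3 and 2 in these comparisons, and PAX3 in sgPHF8-1 had an adjusted p of 0.0557 and MCAM in sgPHF8-3 one of 0.054. With 3 libraries per group and these depths, TYR, MLANA, DCT and PMEL could not be compared.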

Other observations

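Genes whose level ran most like that of a marker over the 9 libraries are given as descriptions, since the libraries fall into 3 guide groups and share the edits. For NGFR these were SUN2 (Pearson r = 0.993 of log2 CPM), IGSF3 (0.993) and LMNA (0.991), of which SUN2 and LMNA encode proteins of the nuclear envelope. For SOX10 they were CD58 (0.989), SORT1 (0.982) and ATP2B4 (0.981), for GPM6B DPP8 (0.989) and TANC2 (0.976), and for PAX3 PRKX (0.993), LEMD2 (0.967) and DDX17 (0.945). For SOX9 they were EXOSC1 (0.973), NR2F1-AS1 (0.956) and EGF (0.937), and for MITF RGS2 (0.96), MB21D2 (0.932) and RAD21 (0.922).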
